A study of Homo sapiens with 24 samples.

Results

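The 10 genes described here encode the epidermal growth factor (EGF) receptor family and its main ligands. The 4 receptors are EGFR, ERBB2 (also called HER2), ERBB3 and ERBB4, and the 6 ligands are AREG (amphiregulin), EREG (epiregulin), HBEGF (heparin-binding EGF-like growth factor), TGFA (transforming growth factor alpha), BTC (betacellulin) and EGF. They were taken by symbol from the 37416 genes of the deposited tables, and all 10 were found. All 10 also passed the filter on low counts that left 21352 genes for testing.

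The ligands are made as membrane-anchored precursors and are cut free by the sheddases ADAM10 and ADAM17, with ADAM17 kept in place by the inactive rhomboids RHBDF1 and RHBDF2. A bound receptor pairs with a second family member, and the phosphorylated tails recruit adaptors that switch on RAS, ERK and PI3-kinase signalling. ERBB2 has no known ligand of its own and ERBB3 has a nearly inactive kinase, so each works with a partner. In breast cancer the family is best known for ERBB2 amplification, and triple-negative tumours, which lack that amplification, often carry much EGFR.

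The libraries came from the human breast cancer lines BT549, HCC1806, MDAMB231 and MDAMB468, which the series calls triple-negative. Each line was transduced with a lentiviral short hairpin RNA, either shADAR1 against ADAR1, the enzyme that edits adenosine to inosine in double-stranded RNA, or shNT, the control hairpin. There were 3 biological replicates in each of the 8 groups and 24 libraries in all. Both arms had 24 h of infection and then 72 h of puromycin (2 µg/ml) in the same medium, per the labels' protocols, and neither the hairpin sequence nor the number of hairpins is named there. The shNT cells are thus transduced and selected cells, not untreated ones. The labels do not say whether replicates were separate transductions, so the p-values measure the spread between these samples only.

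Total counts per library ran from 10370645 to 97218217. ADAR, the targeted gene, stood at 21.8% of its control level in MDAMB231, 26.1% in BT549, 33.1% in HCC1806 and 37.1% in MDAMB468. The 6 epithelial markers EPCAM, CDH1, KRT8, KRT18, KRT5 and KRT14 summed to 3130 to 3840 CPM (counts scaled to the library total) in HCC1806 and MDAMB468, to 646 to 835 in MDAMB231, and to 0.724 to 1.51 in BT549, where EPCAM and KRT14 had no count in the control libraries. The mesenchymal markers VIM, CDH2, ZEB1 and SPARC summed to 4010 to 6310 CPM in BT549 and MDAMB231 and to 8.98 to 57.2 in the other lines. In MDAMB231 that sum was nearly all VIM (4304 CPM in the controls) with ZEB1 (131.8), while SPARC was at 0.8712 CPM and CDH2, at 0.2539 CPM, lay below its 29.98 CPM in HCC1806. The hormone receptor genes ESR1 and PGR summed to 18.1 to 26.8 CPM in HCC1806 and to 5.68 to 8.14 in MDAMB468, where PGR had no count, and to at most 1.49 elsewhere. Endothelial markers (PECAM1, CDH5) summed to at most 4.89 CPM.

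AREG and EREG lie near each other on chromosome 4 and were high in the same lines, as the values further down show, so the DNA just before their starts is given first, with that of EGFR as the member with the highest level. The sequences run from 100 bases before the start of the transcript to 20 bases after it, on the plus strand, and come from RefSeq on GRCh38.p14. The AREG stretch is chr4:74445036-74445155, the EREG stretch chr4:74365045-74365164 and the EGFR stretch chr7:55018917-55019036. Capitals mark exact matches, on either strand, to the cyclic AMP response element TGACGTCA, the TATA box TATAAA and the GC box GGGCGG, which here reads on the minus strand.
AREG: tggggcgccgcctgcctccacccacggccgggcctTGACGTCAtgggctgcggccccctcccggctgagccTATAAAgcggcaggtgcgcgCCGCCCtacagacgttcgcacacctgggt
EREG: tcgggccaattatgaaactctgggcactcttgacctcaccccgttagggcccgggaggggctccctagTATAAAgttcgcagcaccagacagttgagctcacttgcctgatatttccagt
EGFR: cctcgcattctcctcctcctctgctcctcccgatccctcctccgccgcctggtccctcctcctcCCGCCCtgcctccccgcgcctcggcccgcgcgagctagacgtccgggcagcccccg
The AREG stretch holds a match to each of the 3 motifs, with no overlap between them, the EREG stretch a TATA box only, and the EGFR stretch only a GC box. Over the 35116 promoters of the same table, each 300 bases long, 1.85% held the response element, 11.5% the TATA box and 45.0% the GC box. The stretches above have 120 bases, so these shares are for a longer window and are not directly comparable. Another annotated EGFR promoter, chr7:55109589-55109888, held TATA box matches and is not printed here. A match is a run of letters and was not tested as a binding site.

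The first question was how the receptors stood in the 4 lines with ADAR1 at its normal level. EGFR was the most abundant receptor everywhere and stood far higher in MDAMB468 than in the other lines. ERBB2 was almost level across the lines, ERBB3 was present in the 2 strongly epithelial lines and scarce in the others, and ERBB4 was close to absent. Levels are CPM scaled by trimmed mean of M-values (TMM) factors, given as mean ± SD over the 3 control libraries, and between genes only as CPM per kilobase of the gene length in the files. Differences were tested with edgeR's quasi-likelihood test in a single model of all 24 libraries, with Benjamini-Hochberg adjustment over the 21352 genes and a threshold of 0.05. In bulk RNA, fewer cells with a transcript and less of it per cell cannot be told apart.

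EGFR (ENSG00000146648, chr7:55019021-55256620, plus strand, in the files' coordinates) was at 381.8, 373.3 and 349.3 CPM in the BT549 control libraries and at 616.2, 617.7 and 527.9 CPM in those of HCC1806. In MDAMB231 it was at 605.2, 680.4 and 663.1 CPM, and in MDAMB468 at 4932, 4657 and 5142 CPM. Every MDAMB468 library lay above every library of the other lines, and every BT549 library lay below them, while HCC1806 and MDAMB231 overlapped. The MDAMB468 mean was 13.3 times that of BT549, 8.36 times that of HCC1806 and 7.56 times that of MDAMB231 (adjusted p = 1.13e-19, 3.11e-18 and 5.19e-18). BT549 was lower than HCC1806 (log2 difference -0.67, SE 0.0813, adjusted p = 1.39e-07) and than MDAMB231 (-0.82, SE 0.0815, adjusted p = 8.94e-09), whereas HCC1806 and MDAMB231 did not differ past the threshold (log2 difference -0.15, SE 0.081, adjusted p = 0.128), although they did with upper-quartile scaling (0.0159), without mitochondrial genes (0.0381) or without HCC1806 shADAR1 replicate 3 (0.0437). Per kilobase, EGFR ranked at place 48 of the 21352 genes in MDAMB468 (378.9 CPM per kilobase) and at place 1568 in BT549 (28.4 CPM per kilobase).

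The protein-coding genes within 500 kb of EGFR were examined in the same libraries, and those that were expressed were also highest in MDAMB468. In that line SEC61G, 267 kb before the EGFR start and encoding a subunit of the protein translocation channel, averaged 717.3 CPM against 23.24 over the other 3 lines, a ratio of 30.9. LANCL2, 346 kb after it, averaged 960.3 against 19.38 CPM, a ratio of 49.6, and VOPP1, at 417 kb, 914 against 62.13, a ratio of 14.7. EGFR itself had a ratio of 9.18 on the same measure, below those of its 3 expressed neighbours. The other coding gene in that window, VSTM2A, had at most 0.02525 CPM in any line's control mean. In all 3 expressed neighbours the lowest MDAMB468 control library lay above the highest of any other line. DNA copy number was not analysed here.

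**Figure D1:**
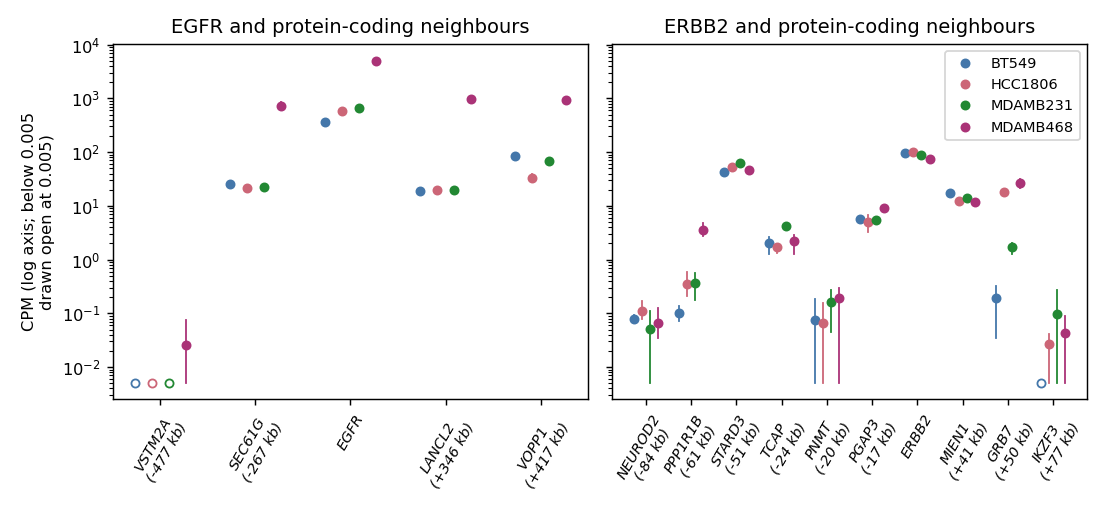
Mean CPM in the 3 control libraries of each line (log axis, vertical bars from the lowest to the highest library) for EGFR, ERBB2 and the protein-coding genes around them, with distance from the start of EGFR or ERBB2 in kilobases. SEC61G, LANCL2 and VOPP1 rise with EGFR in MDAMB468 (717.3, 960.3 and 914 CPM), while ERBB2, STARD3 and MIEN1 stay within a narrow band in all 4 lines. Other neighbours of ERBB2 vary more, with PPP1R1B and GRB7 in MDAMB468 at 12.8 and 4.07 times the mean of the other lines.

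ERBB2 (ENSG00000141736, chr17:39687914-39730426, plus strand) was at 102.2, 95.58 and 88.5 CPM in BT549 and at 101.7, 83.65 and 114.8 CPM in HCC1806. It was at 80.36, 99.32 and 87.26 CPM in MDAMB231 and at 85.29, 72.73 and 69.79 CPM in MDAMB468. The lines overlapped, and the largest ratio between 2 line means was 1.32, between HCC1806 and MDAMB468 (log2 difference 0.40, SE 0.13, adjusted p = 0.0104). BT549 also stood above MDAMB468 (0.33, SE 0.13, adjusted p = 0.0313). Both calls were fragile: the first was lost without HCC1806 control replicate 3 (adjusted p = 0.0741) or without MDAMB468 control replicate 2 (0.0619) or 3 (0.0785), and the second under other scalings (0.054 and 0.0953), with DESeq2 (0.0566), with at least 10 counts in every library (0.0585) or without BT549 control replicate 1 or 2 or MDAMB468 control replicate 2 or 3 (0.0583 to 0.114). ERBB2 overlaps PGAP3 and MIEN1 on the opposite strand, and since strand use in counting is not given, reads from the overlaps cannot be assigned. All libraries together held 108293 counts for ERBB2, 7026 for PGAP3 and 15983 for MIEN1. Nearby STARD3, which encodes a cholesterol transporter, differed little between MDAMB468 and the other lines (ratio 0.896), but GRB7, an adaptor gene 50 kb after the ERBB2 start, ran from 0.1972 CPM in BT549 to 26.73 CPM in MDAMB468. Another neighbour, PPP1R1B, ran from 0.101 CPM in BT549 to 3.56 CPM in MDAMB468.

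ERBB3 (ENSG00000065361, chr12:56079857-56103505, plus strand), the partner that couples best to PI3-kinase, was at 64.37, 51.62 and 63.75 CPM in HCC1806 and at 85.71, 71.61 and 68.85 CPM in MDAMB468. It was at 3.414, 5.697 and 5.789 CPM in MDAMB231 and at 1.082, 0.493 and 0.628 CPM in BT549. The order MDAMB468, HCC1806, MDAMB231, BT549 had a gap between HCC1806 and MDAMB231 of 12.1 times (adjusted p = 5.94e-12) and another between MDAMB231 and BT549 of 6.76 times (adjusted p = 3.46e-09). MDAMB468 and HCC1806 did not differ past the threshold (log2 difference -0.33, HCC1806 minus MDAMB468, SE 0.198, adjusted p = 0.152). ERBB4 (ENSG00000178568, chr2:211375717-212538841, minus strand), a receptor for neuregulins, had 0 to 28 counts in any control library and group means from 0.01382 CPM in MDAMB468 to 0.5174 CPM in MDAMB231. At such counts its levels say little beyond a near absence in BT549 and MDAMB468.

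Among the ligands, HCC1806 had the highest levels of TGFA, EREG, AREG and HBEGF, and MDAMB231 came second in each. BT549 had almost no RNA for any of the 6 ligands except HBEGF. MDAMB468, with the most EGFR, had TGFA and EGF but little AREG, EREG or HBEGF.

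TGFA (ENSG00000163235, chr2:70447280-70554193, minus strand), a high-affinity EGFR ligand common in carcinoma cells, was at 217.7, 238 and 147.6 CPM in the HCC1806 control libraries, at 50.38, 34.67 and 55.4 CPM in MDAMB231 and at 34.01, 30.26 and 37.32 CPM in MDAMB468. The BT549 control libraries held 4, 0 and 2 counts. HCC1806 stood 4.3 times above MDAMB231 and 5.94 times above MDAMB468 (adjusted p = 1.4e-07 and 6.36e-09), and these last lines did not differ past the threshold (adjusted p = 0.104, and 0.0345 without MDAMB231 control replicate 2). EREG (ENSG00000124882, chr4:74365143-74388751, plus strand), a ligand of EGFR and ERBB4, was at 156.7, 110.4 and 105.7 CPM in HCC1806 and at 19.93, 16.4 and 19.47 CPM in MDAMB231. MDAMB468 had 2, 2 and 8 counts of it, and BT549 had none. With 3 counts over the group as the floor for BT549, HCC1806 was at least 6810-fold higher and MDAMB231 at least 1020-fold higher, and HCC1806 was 6.68 times MDAMB231 (adjusted p = 2.02e-09). Each of the 3 HCC1806 libraries lay above every library of another line for both genes.

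AREG (ENSG00000109321, chr4:74445134-74455009, plus strand), a lower-affinity ligand of EGFR, was at 57.2, 43.16 and 28.94 CPM in HCC1806 and at 28.33, 5.474 and 18.03 CPM in MDAMB231. It was at 2.31, 0.8705 and 1.273 CPM in MDAMB468, and BT549 had 1 count in its 3 control libraries. HCC1806 stood 2.49 times above MDAMB231 (adjusted p = 0.0192), a call lost with DESeq2 (adjusted p = 0.0693) and without HCC1806 control replicate 1 (0.0757) or MDAMB231 control replicate 2 (0.0922), the library at 5.474 CPM. HBEGF (ENSG00000113070, chr5:140332843-140346631, minus strand), whose precursor is also the diphtheria toxin receptor, was the only ligand with clear expression in every line. It was at 91.45, 92.9 and 45.29 CPM in HCC1806, at 69.94, 28.95 and 57.03 CPM in MDAMB231, at 13.18, 12.49 and 14.4 CPM in BT549 and at 6.135, 3.586 and 5.234 CPM in MDAMB468. HCC1806 and MDAMB231 overlapped (adjusted p = 0.143, and 0.0348 without HCC1806 control replicate 3), and both lay above BT549 (5.73 and 3.89 times, adjusted p = 1.01e-06 and 3.61e-05), which lay above MDAMB468 (2.68 times, adjusted p = 0.00122).

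EGF (ENSG00000138798, chr4:109912884-110012266, plus strand), the founding ligand, had its highest mean in MDAMB468, at 11.99 ± 0.306 CPM (SD, n = 3), against 7.611 ± 1.833 CPM in HCC1806, 3.953 ± 0.8275 CPM in MDAMB231 and 0.1501 ± 0.05252 CPM in BT549. MDAMB468 and HCC1806 did not differ past the threshold in edgeR (adjusted p = 0.0701) but did in DESeq2 (0.017), with upper-quartile scaling (0.0488) and without BT549 shADAR1 replicate 2 (0.0495) or 3 (0.0154), and HCC1806 stood above MDAMB231 (adjusted p = 0.015, and 0.0561 without MDAMB231 control replicate 2). BTC (ENSG00000174808, chr4:74744759-74794686, minus strand), a ligand of EGFR and ERBB4, was low throughout, from 0.01027 CPM in BT549 to 1.488 CPM in MDAMB468.

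**Figure D2:**
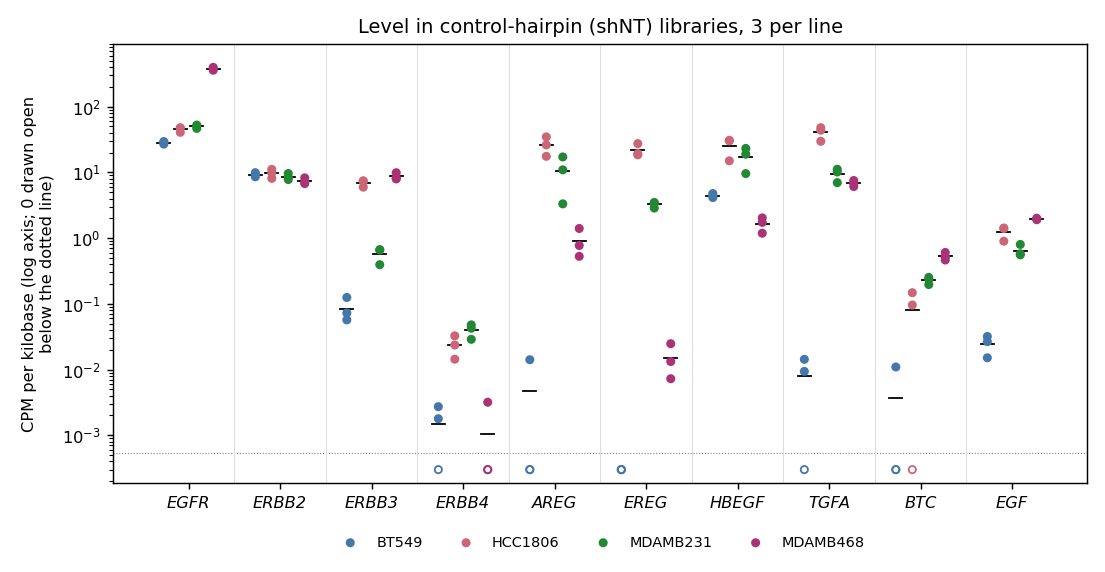
Level of each gene in the 3 control libraries of each line, as CPM per kilobase on a log axis, with short bars at the means and libraries at 0 drawn open below the dotted line. EGFR in MDAMB468 (378.9 CPM per kilobase) is the highest value plotted, ERBB2 lies between 7.357 and 9.692 CPM per kilobase in all line means, and the BT549 points of AREG, EREG, TGFA and BTC lie at or near 0.

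Set against all genes, differences between the lines were common. In the joint test over the 4 lines all 10 members were called, beside 85.9% of all genes tested. The joint call on ERBB2 was narrow (adjusted p = 0.0373) and was lost with DESeq2 (0.0637). Between BT549 and HCC1806, 9 members were called (63.5% of all genes), between BT549 and MDAMB231 9 (56.5%), and between BT549 and MDAMB468 9 (61.0%). Between HCC1806 and MDAMB231 5 were called (59.0%), between HCC1806 and MDAMB468 8 (62.9%) and between MDAMB231 and MDAMB468 7 (61.8%). The members' sizes of difference, not the mere presence of calls, are therefore what the values above describe.

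The ligands of the family outside the 10 had their own pattern. NRG1 (neuregulin 1), a ligand of ERBB3 and ERBB4, averaged 193.1 ± 22.37 CPM in BT549, 99.68 ± 6.083 CPM in MDAMB231 and 57.1 ± 20.79 CPM in HCC1806 (SD, n = 3), and had no count in any MDAMB468 library. NRG1 was thus highest in the line with the least TGFA, AREG and EREG, and missing from the line with the highest ERBB3 mean. NRG2 ran from 0.7108 CPM in HCC1806 to 5.685 CPM in BT549, NRG4 from 0.6651 CPM in MDAMB231 to 5.836 CPM in HCC1806, and EPGN (epigen) from 0.02054 CPM in BT549 to 9.163 CPM in HCC1806. NRG3 stayed at or under 0.2584 CPM. None of these 5 genes was called for a change on knockdown in any line or in the mean over the lines, with or without pairing. The sheddase genes ADAM10 and ADAM17 were present in every line, with control means of 100.3 to 144.9 and 56.72 to 74.78 CPM.

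Genes whose level followed EGFR, ERBB2 or AREG most closely over the 24 libraries were found by Pearson correlation of log2 CPM among 11000 genes, with no test, since the libraries fall into 4 lines. For EGFR these were CREG1 (0.995), ALDH4A1 (0.986) and NDUFV2 (0.983), for AREG CD55 (0.989), DDX5 (0.987) and F3 (0.983), and for ERBB2 LPCAT3 (0.731), ZNF584-DT (0.708) and NGLY1 (0.685). The coefficients for EGFR and AREG mostly restate which lines were high, and those for ERBB2, which hardly varied between lines, were lower.

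The second question was whether the receptors and ligands changed when ADAR1 was knocked down. In the model without pairing, no member passed the threshold in any line, in the mean of the 4 line effects or in the test of a difference between lines. EGFR and ERBB2 had log2 fold changes between -0.12 and 0.26 in the 4 lines. When libraries of the same replicate number were compared with each other, TGFA fell in MDAMB231, AREG rose in MDAMB231 and HBEGF rose in BT549, and TGFA also did so with any 1 pair left out. DESeq2 called 1 member without pairing, TGFA in MDAMB231. Members called at an unadjusted p under 0.05 without pairing numbered 1 in BT549, 2 in MDAMB231, 0 in HCC1806 and MDAMB468, 2 in the mean and 0 in the difference test. At that unadjusted p the share of all genes was 6.42% in BT549, 11.7% in MDAMB231, 4.35% in HCC1806, 3.76% in MDAMB468, 12.8% in the mean and 4.44% in the difference test, so the members' counts were near the background. The share of all genes called at an adjusted p under 0.05 was 0.473% in BT549, 2.01% in MDAMB231, 0.0468% in HCC1806, 0.0375% in MDAMB468, 2.96% in the mean and 0.0234% in the difference test.

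Pairing was used because, in BT549, HCC1806 and MDAMB231, the shADAR1 and shNT libraries of the same number deviated together from their group means (correlations over genes 0.139 to 0.443), and in MDAMB468 they did so less (0.0651 to 0.166). A fit with the replicate number within each line as a block called 5.14% of all genes in BT549, 2.10% in HCC1806, 11.4% in MDAMB231, 13.2% in the mean and 4.69% in the difference test. A second blocked fit, added after the data were seen, left MDAMB468 unpaired and called 2.85%, 0.810%, 8.31%, 9.55% and 1.45%. Members called in the first fit were 1, 0, 3, 1 and 3, and in the second 1, 0, 2, 1 and 0.

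EGFR was lower with shADAR1 in all 3 BT549 pairs, at 346.7, 334.3 and 332 CPM against the control values given above, and the arms did not overlap. The difference was small, a log2 fold change of -0.12 (SE 0.081, adjusted p = 0.964, and 0.099 with the block). In the other 3 lines the fold changes of EGFR lay between -0.04 and 0.04 with SE of about 0.081, so that its high level in MDAMB468 (5022, 4690 and 5249 CPM with shADAR1) was also the level after knockdown. ERBB2 gave -0.07, -0.02 and -0.06 in BT549, HCC1806 and MDAMB231 and 0.26 in MDAMB468 (SE 0.13, adjusted p = 1), where it was higher in all 3 pairs, at 99.15, 82.43 and 91.11 CPM, with overlapping arms. ERBB3 was lower in 3 of 3 HCC1806 pairs (49.1, 40.5 and 56.68 CPM with shADAR1, log2 fold change -0.30, SE 0.198, adjusted p = 1, and 0.231 with the block). ERBB4 in MDAMB231 had 6, 28 and 17 counts with shNT and 0, 8 and 9 with shADAR1. It was lower in 3 of 3 pairs and the arms did not overlap in CPM, with a log2 fold change of -1.91 on these few counts (SE 0.869, adjusted p = 0.383, and 0.215 with the block). The other lines had 0 to 23 ERBB4 counts per library.

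HBEGF in BT549 was at 19.49, 22.15 and 23.36 CPM with shADAR1 against 13.18, 12.49 and 14.4 CPM with shNT. All 3 shADAR1 libraries lay above all 3 controls, by ratios of 1.48, 1.77 and 1.62 within pairs. The log2 fold change was 0.70 (SE 0.333, adjusted p = 0.761 without pairing). With the block the SE was 0.0841 and the adjusted p 1.51e-05, with MDAMB468 unpaired 0.164 and 0.0209, and in a fit of the 6 BT549 libraries alone the adjusted p was 0.0104. The call needed all 3 pairs: without BT549 replicate 1, 2 or 3, in a blocked fit added after the data were seen, the adjusted p was 0.0978, 0.264 and 0.106. BT549 is the line in which HBEGF was the only ligand among the members with more than a trace of RNA.

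In MDAMB231 HBEGF was at 88.66, 48.2 and 78.64 CPM with shADAR1 against 69.94, 28.95 and 57.03 CPM with shNT. The arms overlapped because replicate 2 was low in both, yet each pair rose, by ratios of 1.27, 1.66 and 1.38. The log2 fold change was 0.48 without pairing (adjusted p = 0.661) and 0.52 with the block (adjusted p = 0.000132), and the call was lost with MDAMB468 unpaired (adjusted p = 0.0502). In HCC1806 1 of 3 pairs was higher and the log2 fold change was 0.03, and in MDAMB468 all 3 pairs were higher (8.474, 3.938 and 6.073 CPM with shADAR1, 0.29, adjusted p = 1). Over the 4 lines HBEGF was higher in 10 of 12 pairs, with a mean log2 fold change of 0.37 (adjusted p = 0.338 without pairing, 2.86e-06 with the block and 0.00592 with MDAMB468 unpaired). Among these pairs are those of MDAMB468, where the arms overlapped and the pairing is less certain.

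AREG in MDAMB231 was at 41, 12.8 and 33.81 CPM with shADAR1 against 28.33, 5.474 and 18.03 CPM with shNT. Replicate 2 was again the lowest library of both arms, so the arms overlapped, while the ratios within pairs were 1.45, 2.34 and 1.88. The log2 fold change was 0.80 without pairing (SE 0.48, adjusted p = 0.581) and 0.88 with the block (SE 0.107, adjusted p = 1.19e-05), or an adjusted p of 0.00929 with MDAMB468 unpaired. In that last fit the call was lost without MDAMB231 replicate 2 (adjusted p = 0.11) or 3 (0.0586) and held without replicate 1 (0.0263). In HCC1806 AREG was at 78.4, 57 and 31.47 CPM with shADAR1, above its own control in 3 of 3 pairs by ratios of 1.09 to 1.37, and replicate 3 was the lowest of both arms. In MDAMB468, at 3.216, 1.29 and 1.911 CPM with shADAR1, it was above its control in 3 of 3 pairs by ratios of 1.39 to 1.5. AREG was thus higher in 9 of 9 pairs of HCC1806, MDAMB231 and MDAMB468, with no call in HCC1806 (adjusted p = 0.0897 with the block) or MDAMB468. The share of all genes that rose in 9 of 9 such pairs was not computed. The MDAMB468 pairs rest on an uncertain pairing (correlations down to 0.0651), and the arms overlapped there and in HCC1806. The BT549 shADAR1 libraries had no AREG count and the shNT libraries 1, so BT549 was left out of these pairs.

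TGFA in MDAMB231 was at 20.88, 20.83 and 33.72 CPM with shADAR1 against 50.38, 34.67 and 55.4 CPM with shNT. All 3 shADAR1 libraries lay below all 3 controls, at 0.415, 0.601 and 0.609 of their pair. The log2 fold change was -0.89 (SE 0.247, adjusted p = 0.0668), and -0.87 with the block (SE 0.0833, adjusted p = 3.94e-07) or an adjusted p of 9.86e-06 with MDAMB468 unpaired. DESeq2, without pairing, gave -0.91 and an adjusted p of 0.0109, and edgeR on the 6 MDAMB231 libraries alone gave -0.89 and 0.139. Left out in turn, MDAMB231 pairs 1, 2 and 3 gave adjusted p of 0.00029, 9.4e-05 and 6.99e-05 in the fit with MDAMB468 unpaired, and the model without pairing called TGFA in 4 of 24 fits that left out 1 library (adjusted p from 0.0212 to 0.327). In MDAMB468 TGFA was at 28.22, 24.27 and 28.5 CPM with shADAR1, below all 3 controls (log2 fold change -0.33, SE 0.243, adjusted p = 1). In HCC1806, at 175.3, 214.5 and 120 CPM, it was below its control in 3 of 3 pairs with overlapping arms (-0.24, adjusted p = 1, and 0.09 with the block). TGFA was lower in 9 of 9 pairs of HCC1806, MDAMB231 and MDAMB468, and a link to the change in AREG was not tested. The BT549 pairs, on 0 to 6 counts per library, were left out. The share of all genes that fell in 9 of 9 such pairs was not computed.

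**Figure D3:**
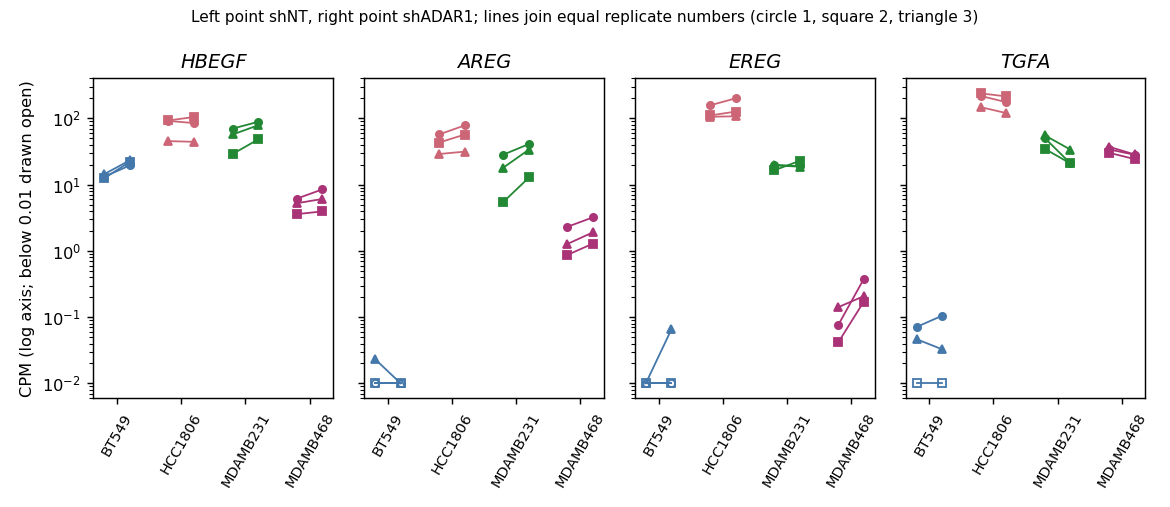
CPM of HBEGF, AREG, EREG and TGFA in each library on a log axis, with shNT on the left and shADAR1 on the right of each line and lines joining equal replicate numbers. HBEGF rises in all 3 BT549 pairs, AREG in all pairs of HCC1806, MDAMB231 and MDAMB468, and TGFA falls in all pairs of those lines, most in MDAMB231.

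EREG did not follow AREG in MDAMB231, where it was at 18.92, 22.83 and 18.67 CPM with shADAR1, higher in 1 of 3 pairs (log2 fold change 0.12, SE 0.227, adjusted p = 0.939). In HCC1806 it was at 200.5, 126.3 and 107.3 CPM, higher in 3 of 3 pairs with overlapping arms (0.22, SE 0.217, adjusted p = 1). In MDAMB468 it went from 2, 2 and 8 counts to 10, 10 and 14, and in BT549 from none to 0, 0 and 4 counts. EGF fold changes lay between -0.14 and 0.02 in the 4 lines, none called. BTC was higher in 3 of 3 MDAMB231 pairs and 2 of 3 MDAMB468 pairs on 6 to 94 counts per library, and neither was called. In HCC1806 it was lower in 2 of 3 pairs on 0 to 20 counts per library (log2 fold change -0.30), also with no call.

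**Figure D4:**
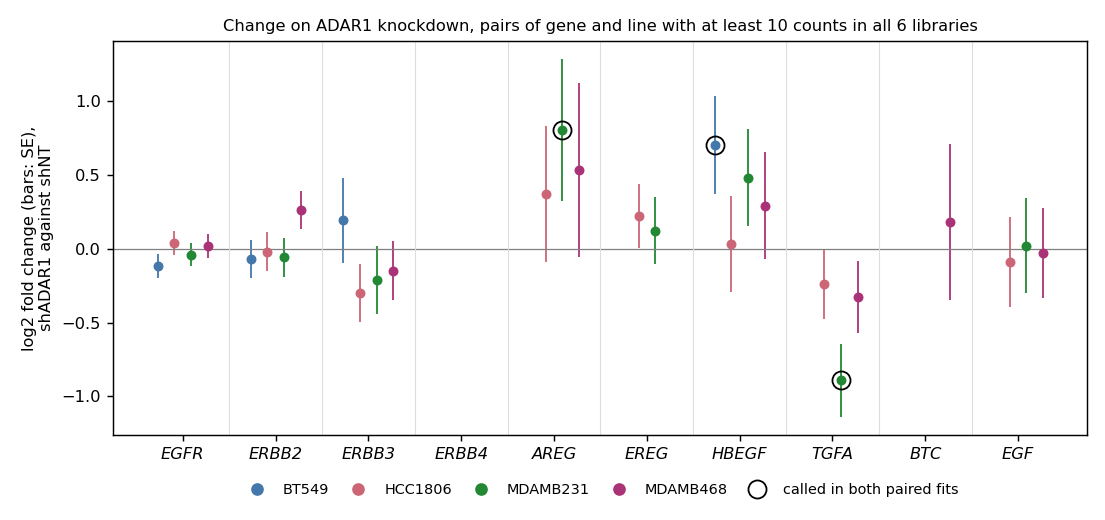
Log2 fold change of shADAR1 against shNT with its SE, from the model without pairing, for each gene in each line with at least 10 counts in all 6 libraries. Rings mark the calls held by both blocked fits, which are HBEGF in BT549 and AREG and TGFA in MDAMB231. EGFR and ERBB2 lie between -0.12 and 0.26.

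Whether the lines differed in their response was tested directly. Without pairing no member passed that test. With the block HBEGF (adjusted p = 0.00418), TGFA (0.00765) and ERBB2 (0.0293) passed, and with MDAMB468 unpaired none did (0.329, 0.0581 and 0.245). Of all genes, 4.69% and 1.45% passed in these fits.

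The rest of the pathway was followed in 6 lists with 56 genes, all of them tested: the 5 other ligands, 4 shedding genes, 19 adaptors and kinases, 11 negative regulators, 10 genes that report ERK output and 7 immediate-early genes. Without pairing, 1 gene rose and 2 fell in the mean effect (2.96% of all genes were called there). In MDAMB231 0 rose and 2 fell (2.01%), and none was called in the other lines. With the block 8 rose and 14 fell in the mean (13.2% of all genes were called there), 7 and 11 in MDAMB231 (11.4%), 2 and 12 in BT549 (5.14%) and 4 and 0 in HCC1806 (2.10%). With MDAMB468 unpaired 4 rose and 7 fell in the mean (9.55%), 3 and 9 in MDAMB231 (8.31%), 0 and 5 in BT549 (2.85%) and 0 in HCC1806 (0.810%). ERRFI1, which encodes the EGFR inhibitor MIG6, rose in the mean effect (log2 fold change 0.31, SE 0.0667, adjusted p = 0.00883) and was higher in 12 of 12 pairs. Its control and knockdown means were 156.2 and 181.6 CPM in BT549, 142.1 and 185.7 in HCC1806, 472.6 and 559.5 in MDAMB231 and 65.9 and 85.62 in MDAMB468. NRAS, which encodes a RAS protein, fell in the mean effect (log2 fold change -0.28, SE 0.0479, adjusted p = 0.000715) and was lower in 12 of 12 pairs. The arms of ERRFI1 overlapped in BT549, MDAMB231 and MDAMB468, and those of NRAS in HCC1806 and MDAMB468. In MDAMB468 the pairing is also less certain. In MDAMB231 alone NRAS fell from 127.4 to 86.27 CPM (-0.56, SE 0.0964, adjusted p = 0.00128). RHBDF2 was lower in 12 of 12 pairs and fell in the mean effect (-0.19, adjusted p = 0.0471), a call lost in 23 of 24 fits that left out 1 library (adjusted p up to 0.115). Its arms overlapped in BT549 and MDAMB231. ERRFI1, NRAS and RHBDF2 are named because they were called in the mean effect, so their pair counts restate that result and add no support. The share of all genes with 12 of 12 pairs in 1 direction was not computed. RHBDF1 fell in MDAMB231 from 80.09 to 60.31 CPM (-0.41, adjusted p = 0.0176), a call lost without replicate 1 or 2 of either MDAMB231 arm (adjusted p = 0.0628 to 0.0979). The call was also lost in the 6 MDAMB231 libraries alone (0.163) and with no filter on low counts (0.0527), and held in both blocked fits. ADAM17, which these rhomboids carry to the cell surface, gave a mean log2 fold change of 0.10 that was not called without pairing (adjusted p = 0.305) and was called with the block (0.0163) and with MDAMB468 unpaired (0.0323), and ADAM10 stayed between -0.02 and 0.03 in the 4 lines.

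The ERK output list (PHLDA1, SPRY2, SPRY4, DUSP4, DUSP6, CCND1, EPHA2, EPHA4, ETV4, ETV5) had a median log2 fold change of -0.36 in BT549 with the block, against 0.02 for all genes. In that line 0 of 10 rose and 7 fell with the block (5.14% of all genes were called there). With MDAMB468 unpaired 4 fell (2.85% of all genes), and none was called without pairing. The 4 were CCND1 (cyclin D1), DUSP6 (an ERK phosphatase), ETV5 and SPRY2, named after their values were seen. DUSP6 went from 7.56 ± 1.837 to 4.435 ± 1.855 CPM (SD, n = 3), a log2 fold change of -0.77 (SE 0.275, adjusted p = 0.412 without pairing, 3.51e-05 with the block and 0.000717 with MDAMB468 unpaired). In MDAMB231 1 of the 10 rose and 2 fell with the block (11.4% of all genes). With MDAMB468 unpaired 1 rose and 1 fell there (8.31%), and in HCC1806 none was called in either fit. In the mean effect 0 rose and 6 fell with the block (13.2% of all genes). With MDAMB468 unpaired 4 fell (9.55%), and none was called without pairing. The immediate-early list (EGR1, FOS, FOSL1, JUN, JUNB, IER2, IER3) had 0 rising and 4 falling in BT549, and 3 rising and 0 falling in both HCC1806 and MDAMB231, with the block. Of all genes, 5.14%, 2.10% and 11.4% were called in these lines. None of these immediate-early calls in single lines was held with MDAMB468 unpaired.

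**Figure D5:**
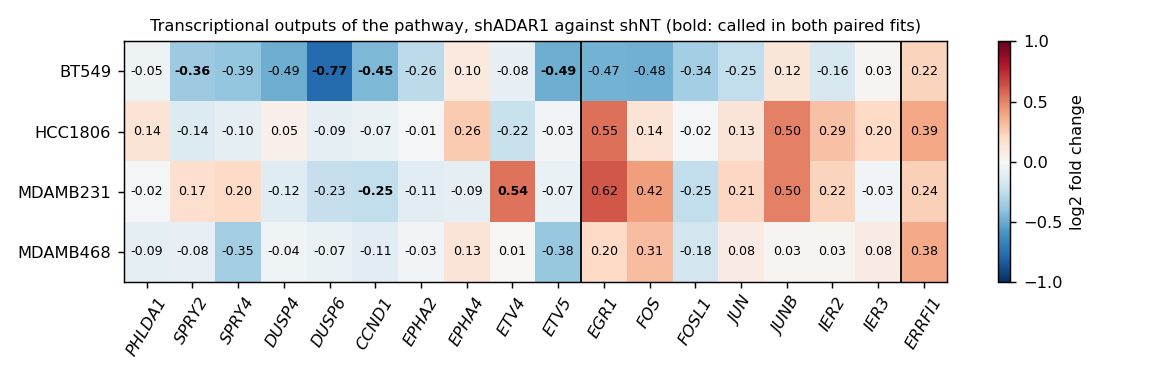
Log2 fold change of shADAR1 against shNT from the model without pairing for the 10 ERK output genes, the 7 immediate-early genes and ERRFI1, with bold for the calls held by both blocked fits. The BT549 row is below 0 for each ERK output gene except EPHA4, while ERRFI1 is above 0 in all 4 rows.

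Of the cell type markers, CDH2 (N-cadherin) rose in MDAMB231, where TGFA fell and AREG rose, from 0.2539 to 0.7941 CPM, on 28 and 82 summed counts (log2 fold change 1.39, SE 0.356, adjusted p = 0.0386). ZEB1, of the same list, went the other way, from 131.8 to 105.4 CPM (-0.32, adjusted p = 0.338 without pairing, 0.000741 with the block and 0.0126 with MDAMB468 unpaired). The epithelial marker CDH1 went from 0.07392 to 0.2402 CPM, on 10 and 31 summed counts (1.41, adjusted p = 0.177 without pairing, and 0.0191 and 0.0254 in the blocked fits). With the block 3 of 6 epithelial markers rose there, and 2 of 4 mesenchymal markers rose and 1 fell (1, 1 and 1 with MDAMB468 unpaired). Of all genes, 11.4% were called in MDAMB231 with the block and 8.31% with MDAMB468 unpaired. The part of these markers in the results on TGFA and AREG was not tested. The summed epithelial markers in that line were 646 to 766 CPM in the control libraries and 741 to 835 CPM in the shADAR1 libraries.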

How the data were processed

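The members and gene lists were chosen with earlier results of these data known. Total RNA, depleted of ribosomal RNA, was sequenced in 24 libraries, per the labels' protocols. Reads were processed with bcl2fastq, STAR, featureCounts of Subread and edgeR, per the submitters' processing notes. The genome build, annotation and strand setting are not given in the sources used here, and of 37416 genes 34265 were found in GENCODE 29 on GRCh38, 31354 of them with the same ends. Per the file headers, the deposited count is a whole number of reads per gene, the deposited CPM is that count scaled to the library total, and the deposited RPKM is CPM per kilobase of gene length. Only the counts entered tests, and CPM was recomputed from them with TMM factors (0.924 to 1.12). Symbols matched 33972 genes. All 8 groups have 3 libraries, and no 2 replicates agreed within counting noise (the lowest chi-square, divided by its degrees of freedom, was 11.8).

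edgeR 4.0.16 in R 4.3.3 tested 21352 genes, kept by filterByExpr, with a quasi-likelihood F test in a single model of 8 group coefficients (2-sided, Benjamini-Hochberg adjustment, threshold 0.05). SE is the size of the fold change over the root of F, and the common biological coefficient of variation was 0.176. Genes named in the text are ADAR, the members, the other ligands, the markers, coding neighbours within 500 kb of EGFR and 100 kb of ERBB2, the 3 best correlated genes, and up to 3 genes per list called in the mean and 2 per line. The script was tested on simulated data. Alternatives were RLE and upper-quartile scaling, 2 other filters on low counts, mitochondrial genes left out, the replicate block, single lines, each library left out, and DESeq2 1.42.0. Pairing by replicate number comes from the labels' numbers and the correlations of deviations, which exceeded 0.1 for every pair of BT549, HCC1806 and MDAMB231. The floor of 3 counts over a group covers counting error only, not the spread between libraries.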

Additional observations from a re-analysis of the deposited data

Results flagged for a closer look

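In the fit with the replicate block, 3 members passed a test of whether the knockdown effect differed between lines, beside 4.69% of all genes tested. HBEGF had an adjusted p of 0.00418, with log2 fold changes of 0.70 in BT549 and 0.52 in MDAMB231 against 0.01 in HCC1806. TGFA had an adjusted p of 0.00765, with -0.87 in MDAMB231 against -0.25 in HCC1806 and -0.33 in MDAMB468. ERBB2 had an adjusted p of 0.0293, with 0.26 in MDAMB468 against -0.07, -0.03 and -0.05 in BT549, HCC1806 and MDAMB231. MDAMB468 is the line whose pairing is least certain. None of the 3 passed this test without pairing or with MDAMB468 unpaired, where the adjusted p was 0.329 for HBEGF, 0.0581 for TGFA and 0.245 for ERBB2.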

How the results depend on the processing

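Of 110 fold changes of members, between lines or on knockdown, 27 had the opposite sign in at least 1 alternative, and none of the 27 was called in any fit. Among them the mean effect on AREG was -0.01 without pairing and 0.08 with DESeq2. That mean includes BT549, where 1 count with shNT and none with shADAR1 gave -1.76 (SE 3.62) without pairing. HCC1806, MDAMB231 and MDAMB468 gave 0.37, 0.80 and 0.53. The median log2 fold change of the 5 other ligands in BT549 also went from -0.37 to 0.05 with the block. With the replicate block, members called numbered 1 in BT549, 3 in MDAMB231, 2 in MDAMB468 (ERBB2, adjusted p = 0.0154, and TGFA, 0.0408, on a pairing that its correlations, down to 0.0651, do not bear out), 1 in the mean and 3 in the difference test, against 0 without it. With MDAMB468 unpaired the numbers were 1, 2 and 1 in BT549, MDAMB231 and the mean, and with 1 MDAMB231 pair also left out 1 to 2 in MDAMB231. The BT549 libraries alone called 1 of 4 members tested, MDAMB231 had 1 without a filter on low counts and 1 with DESeq2, and leaving out single libraries gave 0 to 1 there. With at least 10 counts in every library only 4 members were tested, and the level tests then called 3 jointly, 1 between HCC1806 and MDAMB231 and 3 in each other pair of lines. Leaving out single libraries gave 3 to 6 between HCC1806 and MDAMB231. Over all genes, the calls in BT549, HCC1806, MDAMB231, MDAMB468, the mean and the difference test were 101, 10, 429, 8, 632 and 5 without pairing, 1098, 448, 2434, 354, 2820 and 1002 with the block, and 246, 40, 694, 35, 951 and 106 with DESeq2. Single lines fitted alone called 226, 0, 117 and 21 genes. The block changed no other call on a member's knockdown effect, and in MDAMB468 it called ETV5 and SPRY4 lower (adjusted p = 0.0175 and 0.0436). A block on the number over the lines left 10 members called jointly for level and called EGF between HCC1806 and MDAMB468 (adjusted p = 0.0266). Same-numbered control libraries of different lines deviated together little, with correlations from -0.0331 to 0.103. Depth limits ERBB4 and BTC in all lines and AREG, EREG, TGFA and EGF in BT549.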
